A study of Mus musculus with 24 samples.

Results

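The proliferin genes Prl2c2, Prl2c3, Prl2c4 and Prl2c5 were followed through 24 one-colour arrays of primary murine alveolar type II cells. Probes were taken when the name printed for them in the scanner files was that of 1 of these 4 genes. This gave 2 probes of 55681, both named Prl2c5, so 1 of the 4 genes, among 34832 names on the array, had probes of its own. The names Prl2c2, Prl2c3 and Prl2c4 stood on 0 spots, so those genes are covered only as far as their RNA binds the Prl2c5 probes. The genes were chosen by the log2 processed signals of these probes across the 6 groups, so all values of the 2 probes are given as a description and without a test.

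The cells had grown for 3 days at an air-liquid interface before treatment, and each of 6 groups held 4 arrays. In the NaHS experiment they received vehicle, which was the culture medium DMEM, or 100 µM of the fast hydrogen sulfide donor NaHS, for 6 h or 24 h. In the GYY4137 experiment both groups received 100 µM of the slow donor GYY4137 and were kept for 24 h in 21% O2 (normoxia) or 85% O2 (hyperoxia). Donor-free cells of the GYY4137 experiment were not analysed here, so a difference between its groups is one of oxygen in the presence of the donor. Strain, age and the number of animals are not given in the sources used here. Nothing says that replicates were separate cultures or animals, so p-values measure only the spread between these samples, which may be technical.

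Proliferins, also called mitogen-regulated proteins, are secreted glycoproteins of the prolactin and growth hormone family. In mice they are best known as products of placental trophoblast giant cells. They are also known to be released by growing fibroblast lines after serum or growth factors. Proliferin binds the mannose 6-phosphate and insulin-like growth factor 2 receptor (Igf2r) and acts on endothelial cells to promote vessel growth. The family is encoded by near-identical neighbouring genes on mouse chromosome 13.

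Both probe sequences are shown because they define what was measured. Each is 60 bases long and is printed 5′ to 3′ as in the scanner files, in lower case throughout.
Prl2c5 probe A_52_P619248: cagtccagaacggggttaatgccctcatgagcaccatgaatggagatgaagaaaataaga
Prl2c5 probe A_55_P2004752: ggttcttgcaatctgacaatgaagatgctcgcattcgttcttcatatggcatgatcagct
Probe A_52_P619248 lay at mm9 chr13:13282998-13283933. Its 60 bases spread over 936 bases of genome, so it reads across at least 1 splice junction. Probe A_55_P2004752 lay at mm9 chr13:13283943-13284002, within a single unbroken stretch. Each sequence could be read without a stop codon in 1 of 3 forward frames. An exon annotation of mm9 was not used here.

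The transcripts that the array design listed for the probes showed that neither was particular to Prl2c5. For A_52_P619248 it listed 2 RefSeq transcripts, those of Prl2c5 and of the related gene Prl2c1. For A_55_P2004752 it listed 4, of which 3 matched the RefSeq gene table, as Prl2c5, Prl2c2 and Prl2c3. In that table (assembly GRCm38.p6) Prl2c4 is an older name of Prl2c3. A signal of either probe is therefore called a Prl2c5 probe signal below and may come from several of these genes. Prl2c1, which is outside the chosen set, had a probe of its own, A_55_P2183208 at mm9 chr13:27948312-27948371, and is given for comparison.

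The 2 Prl2c5 probes were compared array by array. Both were well above background on 23 of 24 arrays. On those, the signal of A_52_P619248 was between 0.801 and 2.06 times that of A_55_P2004752, with a median of 1.07, and within 2-fold on 22 of the 23. On replicate 4 of 21% O2, left out of this range, the signals were 26.4 and 3.06, the latter not well above background. Processed signals, on a linear scale with the background subtracted, are given array by array below in the order of replicates 1 to 4.

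In vehicle at 6 h the A_52_P619248 signal was 39.5, 16.5, 28.2 and 585. The A_55_P2004752 signal there was 30.7, 13.3, 20.2 and 626. Replicate 4 stood far above the other 3 replicates with both probes. In NaHS at 6 h the A_52_P619248 signal was 35.8, 35.7, 23.2 and 53.9. The A_55_P2004752 signal was 41.1, 33.7, 12.7 and 57.1. These arrays overlapped vehicle replicates 1 to 3.

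In vehicle at 24 h the A_52_P619248 signal was 19.98, 55.6, 26.4 and 53.0. The A_55_P2004752 signal was 14.8, 40.2, 33.0 and 49.5. With A_52_P619248 the arrays of slide 2, replicates 2 and 4, were the higher ones, and the same held for A_55_P2004752. In NaHS at 24 h the A_52_P619248 signal was 28.2, 64.2, 86.1 and 52.2. The A_55_P2004752 signal was 34.1, 51.3, 95.4 and 38.9. Replicate 3 was the highest with both probes, and the group overlapped vehicle at 24 h.

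With GYY4137 in 21% O2 the A_52_P619248 signal was 29.2, 43.3, 27.4 and 26.4. The A_55_P2004752 signal was 33.4, 21.1, 20.5 and 3.06, of which replicate 4 was not well above background. These levels were dim. In 85% O2 the A_52_P619248 signal was 325, 436, 371 and 191. The A_55_P2004752 signal was 328, 409, 346 and 183. All 4 arrays in 85% O2 lay above all 4 in 21% O2 with both probes.

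**Figure D1:**
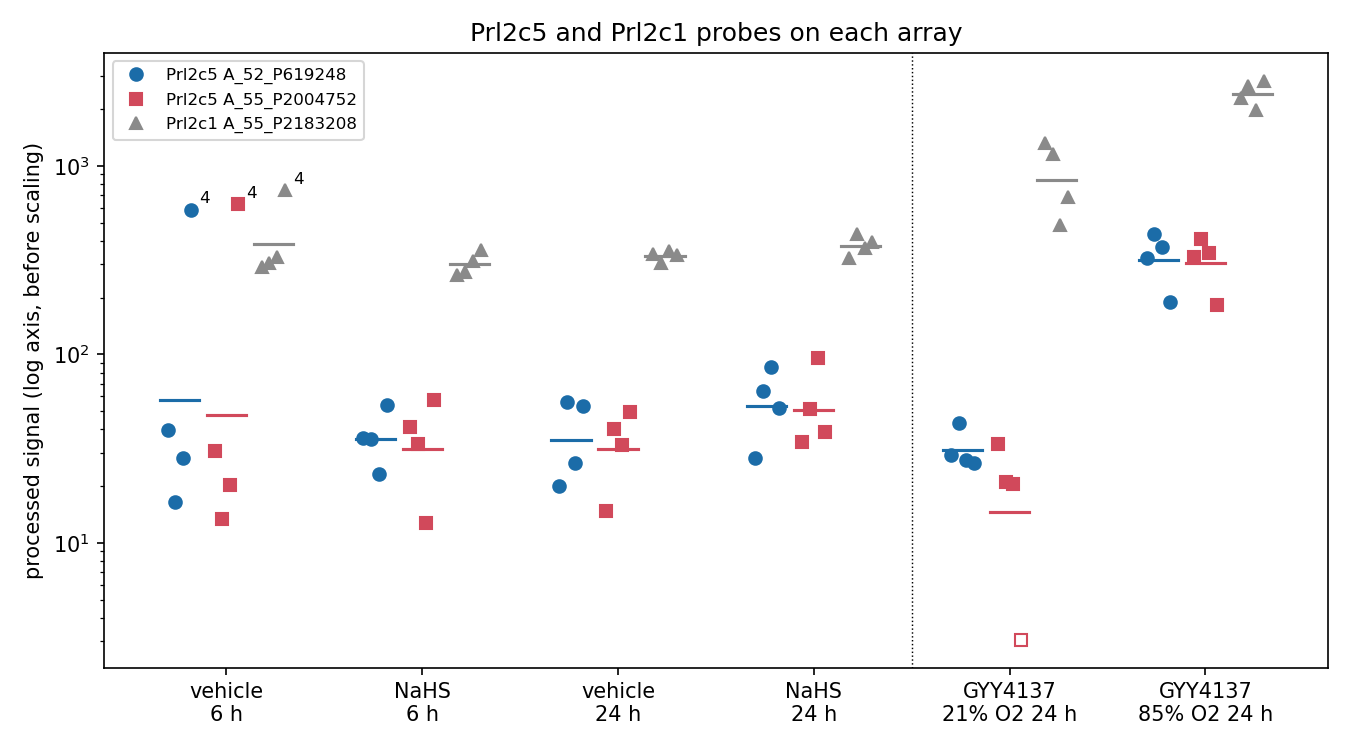
Processed signal (log axis) of the 2 Prl2c5 probes and of the Prl2c1 probe on each of the 24 arrays, by group. Points are arrays, bars are group means on the log scale, the open square is not well above background, and the digit 4 marks replicate 4 of vehicle at 6 h. Both Prl2c5 probes sit between 183 and 436 in 85% O2, and between 3.06 and 43.3 in 21% O2.

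For comparisons, the log2 signal of each array was taken relative to the 75th percentile of that array, so a value of 0 marks that percentile. On this scale the A_52_P619248 level was -4.62 ± 0.31 (SD, n = 4) in 21% O2 and -1.52 ± 0.68 (SD, n = 4) in 85% O2. The A_55_P2004752 level was -5.71 ± 1.54 (SD, n = 4) and -1.58 ± 0.67 (SD, n = 4). In the NaHS experiment the group means lay lower than in 85% O2 and higher than in 21% O2. For A_52_P619248 they were -2.67 ± 2.15 in vehicle at 6 h, -3.37 ± 0.42 in NaHS at 6 h, -3.33 ± 0.75 in vehicle at 24 h and -3.03 ± 0.66 in NaHS at 24 h (SD, n = 4 each). For A_55_P2004752 they were -2.94 ± 2.38, -3.54 ± 0.86, -3.50 ± 0.77 and -3.11 ± 0.77 in the same order. The differences between these 4 means were smaller than the spread within vehicle at 6 h. The experiments were run on separate slides, and levels between them were not tested.

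Of the 6 comparisons, the largest difference of the 2 probes was the one between oxygen levels in the presence of GYY4137. The A_52_P619248 level was 3.1 ± 0.33 (log2 difference ± SE) higher in 85% than in 21% O2, which is 8.55-fold. The A_55_P2004752 level was 4.13 ± 0.71 higher, which is 17.5-fold. Without replicate 4 of 21% O2, the array not well above background, the latter was 10.5-fold. With a different background correction (normexp), which adds an offset of 50, the differences were 3.52-fold and 3.45-fold. Both probes counted as called in the limma fit over all probes (adjusted p under 0.05), where 16.2% of the 41600 probes tested were called and 10.3% were called higher. The share of higher calls moved with the scaling: 4268 of 6721 calls were higher here, 3269 of 6548 with quantile normalization, 2375 of 6713 with median centring and 3278 of 6550 with the deposited table. The median difference of all probes was 0.06, and -0.08 with median centring. In 14.7% of all probes every array in 85% O2 lay above every array in 21% O2. Since the genes were chosen with these values known, nothing is read from these counts. All arrays of 21% O2 were on slide 3 and all of 85% O2 on slide 4, so oxygen and slide cannot be told apart.

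Prl2c1 was measured by its own probe, whose signal level is not set against that of the Prl2c5 probes. In vehicle at 6 h its signal was 291, 307, 327 and 743, again highest on replicate 4. It lay between 265 and 435 on the other 12 arrays of the NaHS experiment. With GYY4137 the Prl2c1 signal was 1318, 1161, 487 and 688 in 21% O2. In 85% O2 it was 2298, 2637, 1972 and 2822, above all arrays in 21% O2, as held for 14.7% of all probes on the scaled level. Prl2c1 rose by 1.25 ± 0.34 (log2 difference ± SE, adjusted p = 0.0395 by limma), or 2.38-fold. This call was lost when any 1 of 7 of the 8 arrays was left out, every array except replicate 1 of 21% O2, under median centring and without the filter on dim probes. Over all settings tried, the adjusted p lay between 0.0137 and 0.0889 and the difference between 0.95 and 1.51. The transcript of Prl2c1 is also listed for A_52_P619248, and how far each gene contributed to that probe was not tested.

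NaHS against vehicle gave no call for either probe at either time. At 6 h the A_52_P619248 level was -0.70 ± 0.81 (log2 difference ± SE) and that of A_55_P2004752 -0.61 ± 0.92 relative to vehicle. At 24 h the differences were 0.30 ± 0.81 and 0.39 ± 0.92. The difference at 24 h minus that at 6 h was 1.0 ± 1.15 and 0.99 ± 1.31. In each of these 3 comparisons 0 of 40015 probes were called by limma (0% of all probes), while 270, 934 and 490 probes had an unadjusted p under 0.05. At these standard errors the differences were within the error of the arrays, which does not show that the groups are alike. For Prl2c1 the differences were -0.37 ± 0.20 at 6 h and -0.12 ± 0.20 at 24 h.

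The sign of the NaHS difference at 24 h was not the same within slide 1 and within slide 2, which was not tested. Replicates 1 and 3 of each group in the NaHS experiment were on slide 1 and replicates 2 and 4 on slide 2. The NaHS difference at 24 h was 1.02 and 1.29 for the 2 probes within slide 1. Within slide 2 it was -0.42 and -0.51. With the group in the fit, the levels on slide 2 were 0.70 ± 0.55 and 0.66 ± 0.64 (log2 difference ± SE) above slide 1. Between slides 48.0% of all probes were called.

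Time in culture gave no call either. In vehicle the level at 24 h was -0.66 ± 0.81 for A_52_P619248 and -0.56 ± 0.92 for A_55_P2004752 relative to 6 h, where 0.922% of all probes were called. In NaHS the differences were 0.34 ± 0.81 and 0.43 ± 0.92, where 0.025% of all probes were called. Among the cell marker genes, 4 were called for time in vehicle by limma: Sftpa1, a surfactant protein, fell by 3.14 ± 0.51 and Scgb3a1, a secretoglobin of club cells, by 3.72 ± 0.68, while Thy1 rose by 1.16 ± 0.24 and Notch3 by 1.24 ± 0.16 (log2 difference ± SE). These calls were lost under 7, 11, 19 and 5 of 28 alternative settings. All 4 were lost within slide 1, within slide 2 and with only the 2 groups in the fit. Those of Sftpa1, Scgb3a1 and Thy1 were also lost without replicate 4 of vehicle at 6 h. With that array left out and slide as a block, Sftpa1, Scgb3a1 and Notch3 kept their call and Thy1 lost it. In NaHS the macrophage gene C1qa was called higher at 24 h, from a group at 6 h in which 0 of 4 arrays were well above background, and 19 of 27 settings lost that call. Within slide 1 the NaHS time difference of the Prl2c5 probes was 0.65 and 1.20, and within slide 2 it was 0.03 and -0.34.

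The comparisons that include vehicle at 6 h rested on its replicate 4. Relative to the 75th percentile, that array was 11.5-fold above the next replicate with A_52_P619248 and 15.8-fold with A_55_P2004752, against 1.71-fold with Prl2c1. Among all 40015 probes, 12 and 5 had a gap at least as large, those probes included, and 190 had a gap over 2 on the log2 scale. Without that array the vehicle means at 6 h were -3.71 ± 0.73 and -4.09 ± 0.69 (SD, n = 3). With it left out and slide as a block, the NaHS difference at 6 h became 0.30 ± 0.48 and 0.54 ± 0.58. The time difference in vehicle became 0.34 ± 0.48 and 0.58 ± 0.58. The difference at 24 h minus that at 6 h became -1.5e-05 ± 0.65 for A_52_P619248 and -0.15 ± 0.79 for A_55_P2004752. Each of these directions thus turned, or the difference all but vanished, on the removal of 1 array.

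**Figure D2:**
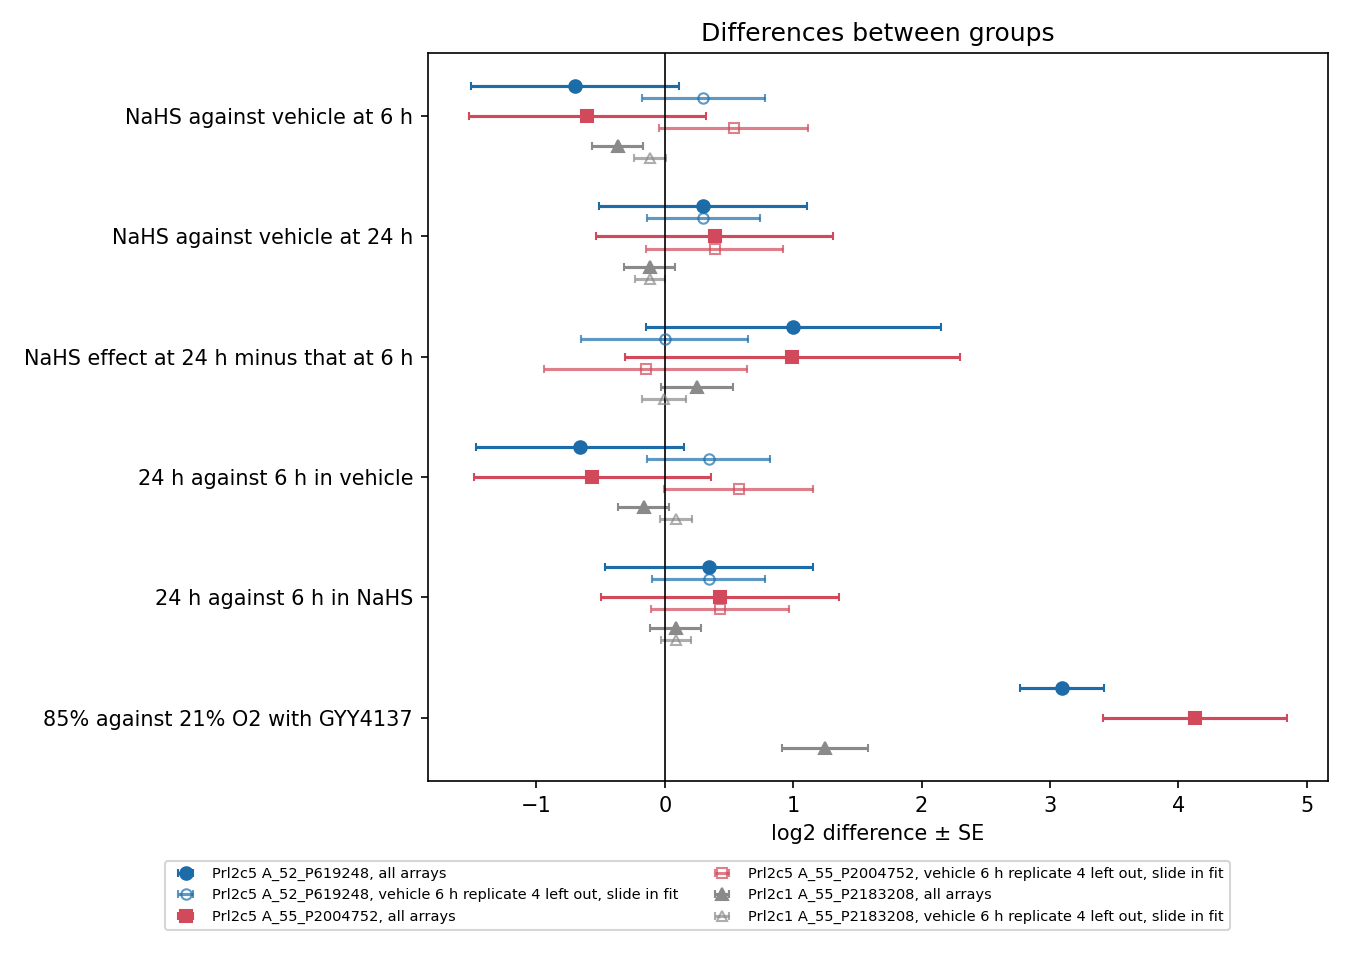
Log2 differences (points) with their standard errors (bars) for the 2 Prl2c5 probes and Prl2c1 in the 6 comparisons. Open symbols leave out replicate 4 of vehicle at 6 h and have slide in the fit. The oxygen differences, 3.1 and 4.13 for the Prl2c5 probes, lie apart from the others, and the 3 comparisons that use vehicle at 6 h shift to the other side of 0 or close to it when that array is left out.

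Replicate 4 of vehicle at 6 h also differed from its group in cell marker levels. Of 10 marker lists, 5 had a mean level above the other 3 replicates and 2 had one below. The ciliated cell list (4 genes) averaged -0.34 on that array, against -2.0 to -1.76 on the other 3 and at most -1.27 on the remaining 12 arrays. The club cell list (5 genes) averaged 1.06, against -1.80 to 0.32 and at most -0.98. Thus both airway lists were higher there than on the other 15 arrays. The alveolar type I list (8 genes) averaged 2.30 against 0.21 to 0.67, and the alveolar type II list (9 genes) 2.34 against 1.30 to 1.42. Of the remaining 12 arrays, replicate 4 of NaHS at 6 h, also on slide 2, reached 2.64 and 2.87 on these lists. Its Prl2c5 probe signals were 53.9 and 57.1. The macrophage list (7 genes) averaged -1.83 against -3.00 to -1.88. There replicate 2, on the same slide, had -1.88, and replicates 1 and 3, on slide 1, had -3.00 and -2.97. The fibroblast list (9 genes) averaged 3.41 against 3.63 to 3.69, and the smooth muscle and pericyte list (8 genes) 2.14 against 2.69 to 3.07. The endothelial, basal and mesothelial lists lay within the range of the other 3. In bulk samples, fewer cells of a type and less RNA per cell cannot be told apart. The part of these markers in the proliferin signal was not tested.

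**Figure D3:**
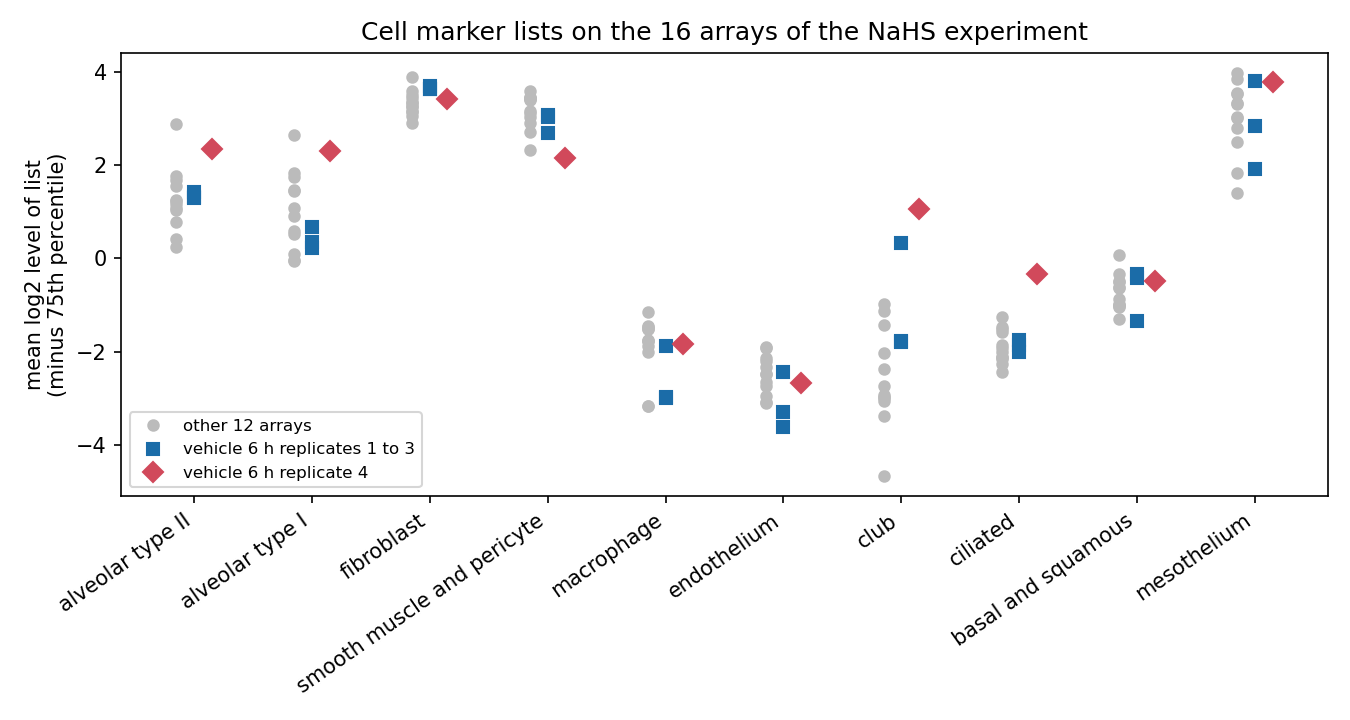
Mean log2 level of each cell marker list, relative to the 75th percentile, on the 16 arrays of the NaHS experiment. Red diamonds are replicate 4 of vehicle at 6 h, blue squares its other 3 replicates and grey circles the other 12 arrays. The red diamond of the ciliated list, at -0.34, and that of the club list, at 1.06, are the highest points of their columns.

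The labelled cell type was checked against the same lists. Of 10 alveolar type II genes, 8 were detected (well above background) on every one of the 16 NaHS experiment arrays, and 8 on every one of the 8 GYY4137 experiment arrays. All 10 fibroblast genes and all 8 smooth muscle and pericyte genes were also detected on each array. The arrays therefore carried RNA of alveolar type II marker genes and of mesenchymal marker genes. In the NaHS experiment the fibroblast list averaged 2.90 to 3.89 per array (log2 level), and in the GYY4137 experiment 3.28 to 4.38. The alveolar type II list averaged 0.25 to 2.875 and 0.09 to 1.59, below the fibroblast list on every array. The smooth muscle and pericyte list averaged 2.14 to 3.58 and 3.26 to 3.72. It lay below the alveolar type II list only on replicate 4 of vehicle and of NaHS, both at 6 h. The shares of cell types were not tested. Between 55.8% and 78.2% of spots per array were well above background. The lowest shares, 55.8% to 58.3%, were those of slide 1.

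Of 24 other prolactin family genes listed, 23 had a probe. In the NaHS experiment 11 of these were above background on no array, and in the GYY4137 experiment 6 were. The 9 genes kept in each experiment included Prl itself, growth hormone (Gh) and the placental lactogens Prl3b1, Prl3d1 and Prl3d2. In 85% against 21% O2, 1 of 9 rose (Prl2c1) and 1 fell, Prl3b1, placental lactogen II, by 0.87 ± 0.24 on the log2 scale (adjusted p = 0.0425 by limma). The Prl3b1 call was lost without any 1 of 6 of the 8 arrays, namely every array except 21% O2 replicate 1 and 85% O2 replicate 2, with the replicate block and without the filter on dim probes. The differences of Prl and Gh were -0.16 ± 0.26 and 0.16 ± 0.36 and missed the threshold. The median difference of the 9 genes was -0.16, against 0.06 for all probes. Of all probes, 16.2% were called in this comparison in either direction.

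Of 14 receptor and signalling genes, 1 rose in 85% O2 and 0 fell, where 10.3% of all probes were called higher. The prolactin receptor gene Prlr rose by 1.08 ± 0.22 (log2 difference ± SE, adjusted p = 0.0156 by limma). Its adjusted p was 0.0512 without replicate 3 of 85% O2. Igf2r, the receptor of proliferin, had no called difference. The median of this list was -0.04.

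Of 19 growth factor and receptor genes, 1 rose and 0 fell. It was Ereg, the EGF receptor ligand epiregulin, with 1.0 ± 0.23 (log2 difference ± SE, adjusted p = 0.0230 by limma). The call was lost without replicate 4 of 21% O2 or replicate 1, 3 or 4 of 85% O2. The median of the list was 0.09, and 10.3% of all probes were called higher in this comparison.

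The 7 genes of AP-1, the Fos and Jun transcription factor that is known to act on proliferin promoters, held 1 that rose and 1 that fell. Fosl1 rose by 1.08 ± 0.18 (log2 difference ± SE, adjusted p = 0.00901 by limma) and stayed called under all 15 alternative settings. Jun fell by 0.68 ± 0.16 (adjusted p = 0.0261). Its call was lost with the replicate block and without replicate 2 or 4 of 21% O2 or replicate 1, 3 or 4 of 85% O2. The median of the 7 differences was 0.14, and 16.2% of all probes were called in this comparison in either direction.

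Of 16 trophoblast genes 9 were kept in the GYY4137 experiment, of which 0 rose and 1 fell. Gcm1, a transcription factor of the placental labyrinth, fell by 0.93 ± 0.20 (log2 scale, adjusted p = 0.0192 by limma). This was lost without replicate 2 of 21% O2 or replicate 3 or 4 of 85% O2. The median of the 9 genes was 0.39, and 16.2% of all probes were called in either direction. In the 5 comparisons of the NaHS experiment, 0 genes of these 5 lists were called, and the list medians lay between -0.35 and 0.15. The closest to the threshold was Fos in vehicle, with -0.64 ± 0.15 at 24 h against 6 h (adjusted p = 0.0566 by limma).

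**Figure D4:**
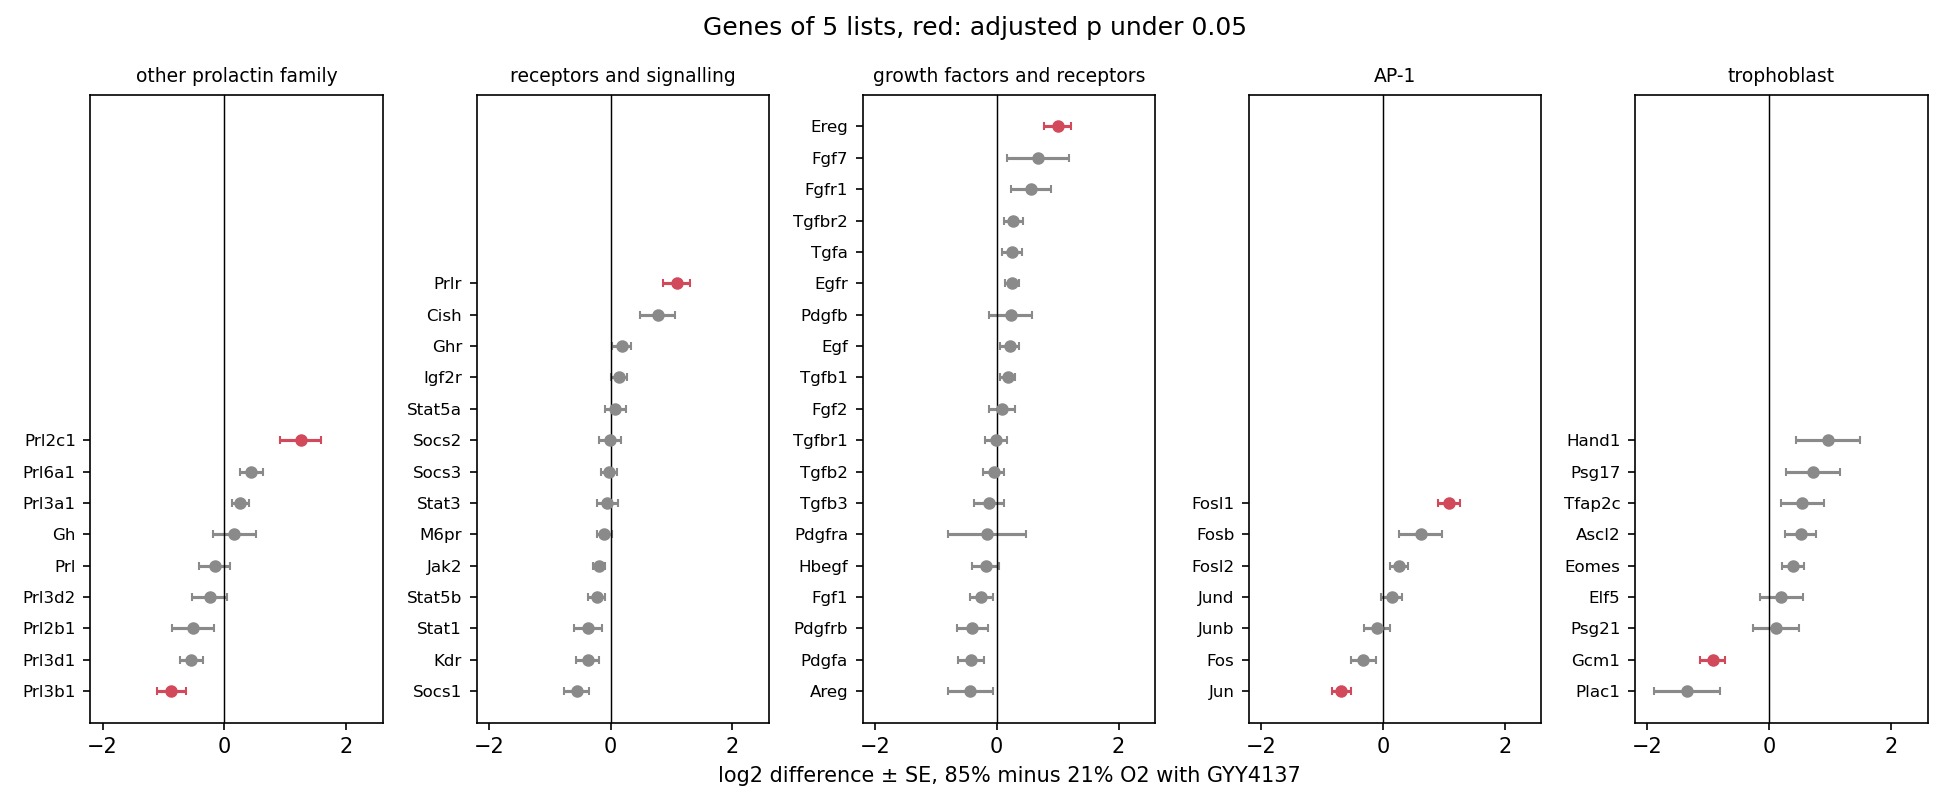
Log2 difference between 85% and 21% O2 with GYY4137 (point) and its standard error (bar) for each kept gene of 5 lists. Red marks an adjusted p under 0.05. Prl2c1, Prlr, Ereg and Fosl1 are red on the right, and Prl3b1, Jun and Gcm1 are red on the left.

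No called gene of these lists or of the marker lists changed its sign in the oxygen comparison under any of the 15 settings, scaling included. These genes were picked by their call on the same arrays, so a change of sign was unlikely beforehand. The kept sign is therefore no further evidence, and slide and oxygen coincide in every setting. The marker lists in 85% against 21% O2 gave calls in both directions, where 16.2% of all probes were called and 10.3% were called higher. Both called ciliated genes rose, Foxj1 by 1.46 ± 0.34 (log2 difference ± SE) and Tppp3 by 0.77 ± 0.19 (adjusted p = 0.0262 and 0.0318 by limma), of 4 kept. The Foxj1 call was lost under 3 of 15 settings, without replicate 2 or 3 of 21% O2 or replicate 3 of 85% O2. The Tppp3 call was lost under 8 of 15, namely median centring, no filter on dim probes, and without any 1 array except replicates 1 and 3 of 21% O2. All 4 ciliated genes were above background on all 8 arrays. The mean of this list ran from -2.41 to -1.79 in 21% O2 and from -1.61 to -1.24 in 85% O2 without overlap. The mean of the endothelial list (5 genes, 1 called higher, Tek) ran from -2.64 to -2.39 and from -2.31 to -1.91, again without overlap. The ranges of the remaining marker lists overlapped. Of all single probes, 14.7% had every array in 85% O2 above every array in 21% O2, and 23.4% had no overlap in either direction. Nothing is read from the lists without overlap. The Tek call was lost under 6 of 15 settings: quantile normalization, the deposited table, and without replicate 2 or 4 of 21% O2 or replicate 3 or 4 of 85% O2. Its difference was 1.17 ± 0.28 and lay between 0.32 and 1.36 over the settings. The club list (4 genes, 1 called higher, Bpifa1) ran from -4.07 to -2.66 and from -2.95 to -1.90. The Bpifa1 call was lost under 13 of 15 settings and held only under the stricter filter and without replicate 3 of 21% O2. Lamp3 fell (1 of 9 alveolar type II genes), Thy1 fell (1 of 10 fibroblast genes), and of 8 smooth muscle and pericyte genes Notch3 rose and Des fell. Of the alveolar type I, macrophage, basal and mesothelial lists, 0 genes were called. The part of these markers in the proliferin difference was not tested.

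Genes with a pattern like that of the proliferin probes were named by their correlation with the mean of both probes, as a description. Over the 8 arrays of the GYY4137 experiment the 8 most alike were Rilpl1 (Pearson r = 0.986), Mkx, Mtx1, Nqo1, Vwa8, Ogfr, Mef2d and Tef (r = 0.976). The points share 2 slides, and the step between the groups enters each correlation. The oxygen differences of these genes are therefore given without a test, since likeness to that step chose them. Nqo1, a quinone reductase known as a target of the oxidative stress factor Nrf2, had a difference of 3.42 ± 0.24 (log2, ± SE). Mkx, a tendon transcription factor, rose by 1.15 ± 0.16, and the remaining genes differed by 0.36 to 0.83. After subtraction of each group's mean, the 8 most alike genes were others, led by Taf6l (r = 0.980), and 0 of 8 were shared. The first 8 genes still had r of 0.79 (Tef) to 0.92 (Nqo1) after the subtraction. Of the later 8, Prdx4, Synj2 and H2ac11 had r of -0.69, -0.76 and -0.82 without it. The rest of the later 8 had r of 0.53 to 0.88 without it.

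Over the 16 arrays of the NaHS experiment, with slide means subtracted, the 8 most alike were Sncg (r = 0.915), Spaca9, Abcc4, Arhgef4, Drc1, Ccdc113, Nme5 and Ankk1 (r = 0.853). Drc1 and Ccdc113 are parts of motile cilia. All 8 had their highest level on replicate 4 of vehicle at 6 h, for example -0.94 for Ccdc113 against -6.36 to -3.44 on the other 15 arrays. Without that array 1 of the 8, Sncg, remained among the most alike (r = 0.756), and Rrs1 led (r = 0.801). The rest of the first 8 then had r of 0.49 (Nme5) to 0.68 (Abcc4).

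Promoter windows of Prl2c3 and Prl2c5 are shown because both genes can feed A_55_P2004752 and proliferin promoters are known to carry an AP-1 site. They are the first 250 bases of the RefSeq promoter window of each gene (GRCm38.p6), 5′ to 3′ on the gene's strand, and their last bases lie within the annotated gene. They are shown with the AP-1 core TGANTCA in capitals. Prl2c2 is only named.
Prl2c3, minus strand, chr13:12800080-12800329: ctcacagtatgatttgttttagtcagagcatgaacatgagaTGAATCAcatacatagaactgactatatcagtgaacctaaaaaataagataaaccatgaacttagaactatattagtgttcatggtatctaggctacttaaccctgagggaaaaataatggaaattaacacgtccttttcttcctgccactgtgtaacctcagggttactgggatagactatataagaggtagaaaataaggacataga
Prl2c5, plus strand, chr13:13182466-13182715: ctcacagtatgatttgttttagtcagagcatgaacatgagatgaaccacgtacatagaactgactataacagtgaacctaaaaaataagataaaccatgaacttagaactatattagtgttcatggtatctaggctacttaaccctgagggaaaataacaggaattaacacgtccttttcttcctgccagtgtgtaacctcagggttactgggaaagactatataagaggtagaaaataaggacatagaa
Of 249 aligned bases 241 were identical (96.8%), with 8 substitutions, and 2 further alignment columns were gaps. Counted from 1 at the 5′ end of the Prl2c3 window, the change T46C from Prl2c3 to Prl2c5 falls within the AP-1 core. The core was found 1 time in Prl2c3, starting at base 42, and 0 times in Prl2c5, and 6.75% of 32851 windows of the same length held it on either strand. A TATA-like motif, TATANAA, occurred 1 time in each window and in 10.4% of all windows. The cyclic AMP response element TGACGTCA (1.55% of windows) and the antioxidant response element core TGACNNNGC (10.2%) were found 0 times in both. The motifs were searched on both strands and do not overlap in these windows. These matches describe the letters only.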

How the data were processed

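Total RNA was labelled with Cy3 and hybridised to 24 one-colour Agilent mouse arrays. Per the file headers and the submitters' processing notes, intensities are processed signals of Feature Extraction 10.7.3.1, with background subtracted. The deposited log2 values of the authors are an alternative only. They correlated with the log2 scanner signals at r of 0.99856 to 0.99998, with medians of 5.95 (NaHS) and 7.08 (GYY4137) on every array, and their normalization is not given in the sources used here. The number of arrays limits the precision.

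The log2 processed signal minus the 75th percentile of its array was the main value. Outlier spots were left out and spots of a probe averaged. Probes well above background on at least 4 arrays of an experiment were kept, 40015 (NaHS) and 41600 (GYY4137). Each experiment was fitted with limma 3.58.1 in R 4.3.3, with group means and Benjamini-Hochberg adjustment at 0.05 over all probes, tested on simulated data. For a listed gene, the brightest kept probe was used. Alternatives were normexp (offset 50), quantile normalization, median centring, other filters, the deposited table, replicate and slide blocks, within-slide values and leaving out each array.

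The members, the 5 gene lists and the 10 marker lists were chosen with earlier results of these data known. Named genes were every member probe, up to 6 called genes per list and comparison, and the 8 genes most like the members per experiment. Replicate numbers were checked as a pairing by the deviations from the group means. In the NaHS experiment same-numbered arrays, which share a slide, correlated at 0.53 to 0.75. Unlike-numbered arrays of the same slide correlated at 0.41 to 0.70. With slide removed the ranges were -0.17 to 0.28 and -0.28 to 0.17. Removing the slide makes the arrays of a group on the same slide mirror images of each other. The second range therefore only repeats the first with its sign turned. Whether there is a pairing beyond the slide could not be decided in this way. In the GYY4137 experiment same-numbered arrays correlated at 0.18 to 0.26 and unlike-numbered ones at -0.22 to 0.17. All same-numbered pairs thus lay above all unlike-numbered ones. Same-numbered arrays also share a position on the 2 slides, so a pairing and a position cannot be told apart. The main fit leaves the replicate number out. With the replicate block the oxygen calls of Prl3b1, Jun and Bpifa1 were lost.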

Additional observations from a re-analysis of the deposited data

Results flagged for a closer look

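In vehicle at 6 h, the array of replicate 4 was set apart from the other 3 by the gap to its nearest neighbour relative to the range of the group. Its processed signal was 585 with Prl2c5 probe A_52_P619248, 626 with Prl2c5 probe A_55_P2004752 and 743 with the Prl2c1 probe. On the log2 scale none of these 3 gaps passed the same limit.

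With GYY4137 in 21% O2, replicate 2 was set apart in the same way with A_52_P619248, at a signal of 43.3 against 26.4 to 29.2. Of 18 sets of 4 arrays, 4 were marked on the linear scale and 0 on the log2 scale. Chance marks about 1 set in 20 when the sets are independent and their values normally distributed. All marks except that in 21% O2 come from the same array, and the probes share listed transcripts. The count is therefore not read against that rate, and the marks are a description.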

How the results depend on the processing

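The values of the 2 Prl2c5 probes are a description, since their signals chose them. The mean of their oxygen differences was 3.61 and became 1.80 with normexp; without 1 array it lay between 3.21 and 3.94. The mean NaHS difference at 24 h, 0.35, was 1.15 within slide 1 and -0.46 within slide 2, and 0.03 with normexp. With normexp the mean time difference in NaHS went from 0.39 to 0.04, and the difference of the NaHS effects became 0.67. The means for NaHS at 6 h and for time in vehicle were then -0.65 and -0.63. Without 1 array, the mean difference lay between -1.27 and 0.44 for NaHS at 6 h, between 0.02 and 0.54 for NaHS at 24 h, between -0.10 and 1.62 for their difference, between -1.23 and 0.48 for time in vehicle and between 0.07 and 0.60 for time in NaHS. With slide as a block and replicate 4 of vehicle at 6 h left out, chosen after seeing the data, the means were 0.42 for NaHS at 6 h, 0.46 for time in vehicle and -0.07 for the difference of the NaHS effects.

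Group levels moved as a whole with the scale. Without the 75th percentile, A_52_P619248 levels were 5.84, 5.15, 5.14, 5.74, 4.95 and 8.31 and A_55_P2004752 levels 5.57, 4.98, 4.97, 5.66, 3.86 and 8.25, from vehicle and NaHS at 6 h through vehicle and NaHS at 24 h to 21% and 85% O2. With normexp, A_52_P619248 levels were -2.12, -2.09 and -2.05 in NaHS at 6 h, vehicle at 24 h and NaHS at 24 h, and -3.15 in 21% O2. A_55_P2004752 levels were -2.14, -2.13, -2.11 and -3.20 in the same groups.

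Counts of all probes called for time moved most. In vehicle, 369 became 670 with normexp, 230 with quantile normalization, 1 with median centring, 111 without a filter, 701 with a stricter one, 233 with the deposited table, 1266 with the replicate block, 1080 with slide as a block, 0 and 1 within slides 1 and 2, 0 with only the 2 groups, and 9 to 456 without 1 array. In NaHS, 10 became 62, 2, 0, 0, 41, 2, 44, 70, 0, 0 and 0 in the same order, 83 with slide as a block and replicate 4 of vehicle at 6 h left out, and 0 to 15 without 1 array. That last setting with the array left out gave 1 call, against 0, for NaHS at 6 h. For oxygen, 6721 became 2709 to 7927 without 1 array. The cause was not tested. The replicate block changed no call of a Prl2c5 probe; for oxygen it gave 6664 calls.

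Of the listed genes called for oxygen, Fosl1, Lamp3, Thy1, Notch3 and Des kept their call under all 15 settings, and Bpifa1 kept it under 2. Dim signals limit the proliferin values in 21% O2, where 1 of 4 arrays was not well above background with A_55_P2004752. They also limit those of the NaHS experiment. Apart from replicate 4 of vehicle at 6 h, the signals of both probes there lay between 12.7 and 95.4.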
